A study of Mus musculus with 59 samples.

Results

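Tfcp2l1 encodes a transcription factor of the CP2 and Grainyhead family that belongs to the self-renewal network of naive mouse embryonic stem cells (ESCs). CTCF peaks around this gene were followed from day 0 cells through reprogramming to ESCs. The members are the peaks of the 16 deposited lists that overlap the gene span widened by 50 kb on both sides. In mm10 the span (gene ID 81879) is chromosome 1, 118627923 to 118685168, and the window runs from 118577923 to 118735168. Peaks of different lists that overlapped by at least 1 bp were joined into a site, which gave 13 sites near Tfcp2l1 out of 105010 in the whole series. The peaks were chosen by their positions in the lists, and the gene was selected on its presence and absence of peaks across the lists, losses under Ctcf shRNA included. All values for it are therefore descriptions, with no test.

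CTCF is a zinc-finger protein that holds the anchors of chromatin loops and limits which enhancers reach which promoters. TFCP2L1 acts downstream of LIF and STAT3 signalling and of inhibition of GSK3 in mouse ESCs, and its gene is silent in fibroblasts. Reprogramming was driven here by the factors Oct4, Sox2, Klf4 and c-Myc (OSKM). SMARCA5, also called SNF2H, is the ATPase of ISWI complexes that slide and space nucleosomes, and CTCF occupancy is known to depend on it in ESCs.

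The series holds 59 samples from mouse cells, 31 from chromatin immunoprecipitation and sequencing (ChIP-seq) and 28 from input DNA. Reprogramming started from mouse embryonic fibroblasts, named OG2-MEFs for the retroviral experiments, which carry an Oct4-GFP reporter. The 10 lists with a short hairpin RNA (shRNA) come from cells transduced with doxycycline-inducible OSKM lentivirus and either a control shRNA against luciferase or an shRNA against Ctcf. They cover day 0 cells (2 samples per list), Thy1+ cells of days 3 and 9, SSEA1- Thy1- and SSEA1+ cells of days 6 and 9 (1 sample per day), and Oct4-GFP+ cells of day 12 (3 samples per list). Thy1 marks fibroblasts, SSEA1 marks cells moving towards pluripotency, and Oct4-GFP marks cells that have switched on the reporter. Another 3 lists come from unsorted day 10 cells infected with OSKM retroviruses and given no further factor (2 samples), Ctcf (2 samples), or Ctcf with an shRNA against Smarca5 (1 sample). The ESC lists are of the E14Tg2a line: CTCF in wild type (1 sample), CTCF in a Smarca5 knockout made with Cas9 nickase (1 sample), and SMARCA5 pulled down with streptavidin from single-clone cells that overexpress Flag-biotin-Smarca5 together with the biotin ligase BirA (2 samples). The Thy1+ pair has a label conflict: titles and descriptions of the day 3 samples disagree on which received Ctcf shRNA, and the titles were followed.

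Each group has 1 list whatever its number of samples, so no difference has a replicate check. The lists hold between 23600 and 89567 peaks, each 400 bp wide with a score of 0, so presence in a list is the only measure and a weakened peak cannot be told from an unchanged one. Overlapping peaks had the same start and end at 80776 of 80776 peaks between the wild-type and knockout ESC lists and at 43213 of 43213 between the day 10 lists without and with added Ctcf, against 5.20% between the day 12 control and wild-type ESC lists. Positions are therefore not compared within such a set. In these populations a peak missing from a list can also mean fewer cells carrying it. The lists do not measure RNA, so neither the level of Tfcp2l1 nor the depletion of Ctcf or Smarca5 was checked.

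The site that recurs most often near Tfcp2l1 lies on its promoter, and for that reason the RefSeq promoter is shown. It covers 250 bases before the start site and 50 after it (GRCm38.p6, chr1:118627695-118627994, plus strand, start site at 118627945). Capitals mark CCCTC, the letters CTCF is named after, and TATAAA, a core promoter element found at some genes.
Tfcp2l1 promoter: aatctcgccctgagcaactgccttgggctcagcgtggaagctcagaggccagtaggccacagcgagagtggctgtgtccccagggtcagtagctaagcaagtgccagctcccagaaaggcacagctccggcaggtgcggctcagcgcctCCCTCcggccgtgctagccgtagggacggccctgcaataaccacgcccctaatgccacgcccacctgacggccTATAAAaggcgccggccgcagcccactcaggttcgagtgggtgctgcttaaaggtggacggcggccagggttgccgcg
CCCTC, searched on both strands, occurs at 1 place, starting at -101 from the start site, and it is present in 66.0% of the 32851 RefSeq promoters of this length. TATAAA, searched on the given strand, starts at -28 and is present in 8.32% of promoters. A longer CTCF core, made of the letters CCA, then AG, then GGC, each separated from the next by 2 free bases, was also searched on both strands. It has 0 matches in these 300 bases and is present in 2.43% of promoters. The CCCTC and TATAAA searches were chosen after the sequence was seen. The promoter has 65.3% G and C bases and 21 CG dinucleotides, against medians of 52.7% and 7 over all promoters.

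Of the 13 sites, 5 touched the Tfcp2l1 span, 5 lay before it and 3 after it. Clasp1, which encodes a microtubule plus-end protein, ends 18.5 kb before Tfcp2l1 and held the 3 outermost sites on that side. Gli2, a transcription factor of Hedgehog signalling, is the next protein-coding gene on the other side, 148.9 kb away and outside the window. Exons and introns were not used here. A total of 10 sites were in ESC lists only, and 3 were also in reprogramming lists. These 3 are called here the promoter site (118627641 to 118628139), the upstream site (118622828 to 118623255, at -4.90 kb from the start site) and the distal site (118731130 to 118731546, at 103.4 kb). The outermost sites inside the window were at -30.2 and 103.4 kb, and the nearest ones outside it at -55.6 and 131.8 kb.

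**Figure D1:**
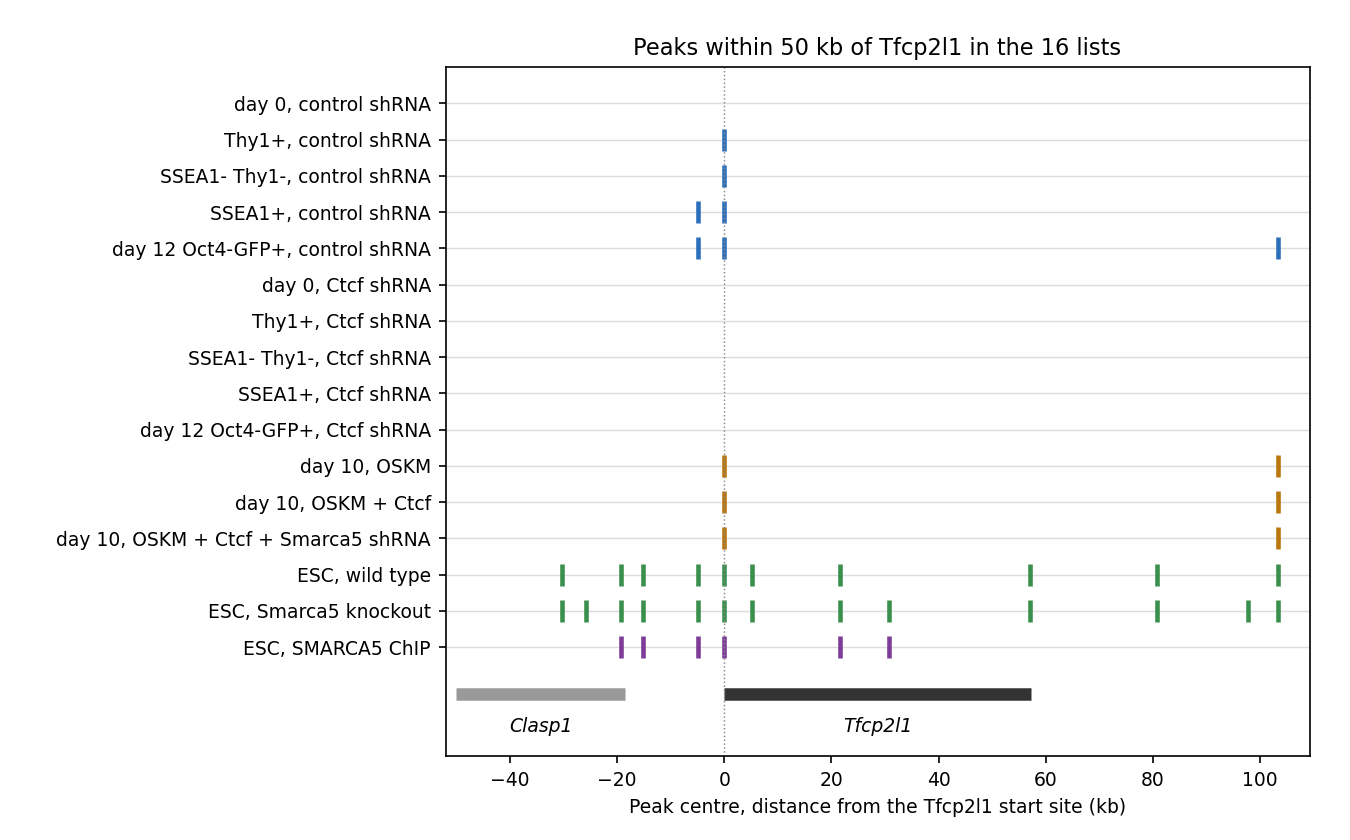
Positions of all peaks within 50 kb of Tfcp2l1, with distance from the start site in kb on the horizontal axis and the 16 lists in rows; each tick is 1 peak and the bars show the gene spans. The 5 Ctcf shRNA rows are empty, and only 3 positions carry ticks outside the ESC rows.

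Sites near Tfcp2l1 were added over the control lists in the order of the populations. The day 0 control list had 0 peaks in the window, although it held 28838 elsewhere. The Thy1+ control list had 1 peak, the promoter site, absent from day 0 as were 47.0% of all Thy1+ control peaks, and so did the SSEA1- Thy1- control list. The SSEA1+ control list had 2, the promoter and the upstream site, and over the whole list 10.7% of its peaks were absent from the SSEA1- Thy1- control list. The day 12 Oct4-GFP+ control list had 3, with the distal site added, where 17.1% of all peaks were absent from the SSEA1+ control list. Each site, once found in this order of populations, was found in each later control list and in wild-type ESCs. The order is not one of days, since the Thy1+, SSEA1- Thy1- and SSEA1+ lists each include a day 9 sample. The unsorted day 10 lists do not follow it, as they held the distal site without the upstream site.

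Against the whole lists, 49.3% of day 12 control peaks were absent from the day 0 control list, and near Tfcp2l1 it was 3 of 3 (exact binomial 95% interval 29.2% to 100%). With the flank at 100 kb it was 3 of 8 (37.5%), below the share of the whole list. The intervals given here and below cover counting error only, and since the gene was chosen on these lists none of them is a test. Of the day 12 control peaks, 6.18% were absent from wild-type ESCs, and near Tfcp2l1 it was 0 of 3. Among 4045 protein-coding genes without a day 0 control site in a window of this kind, 391 (9.67%) had 3 or more in the day 12 control list, Tfcp2l1 among them. The day 0 list is the shortest control list, and the part of its length in this difference was not tested.

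**Figure D2:**
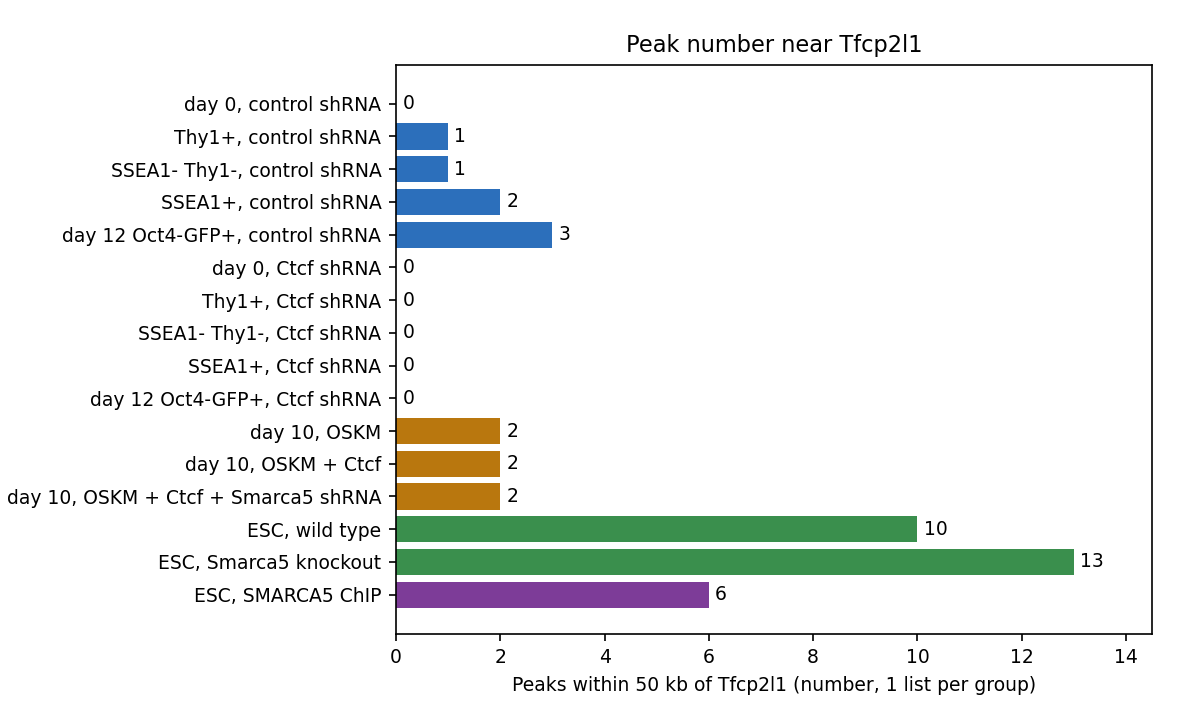
Number of peaks within 50 kb of Tfcp2l1 in each list, with bars starting at 0 and 1 list per group. The control lists hold 0, 1, 1, 2 and 3 peaks in the order day 0, Thy1+, SSEA1- Thy1-, SSEA1+ and day 12, and the ESC CTCF lists hold 10 and 13.

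With the shRNA against Ctcf, the window was empty in each population. The Thy1+, SSEA1- Thy1-, SSEA1+ and day 12 Ctcf shRNA lists held 0 peaks where their controls held 1, 1, 2 and 3, and the day 0 list held 0 against 0. All 7 control peaks, which are 3 sites seen repeatedly, were thus absent. Over the whole lists the share of control peaks absent with Ctcf shRNA was 18.9% (Thy1+), 18.0% (SSEA1- Thy1-), 18.0% (SSEA1+) and 41.4% (day 12). At day 0 it was 26.7%, with no control peak near Tfcp2l1 to compare. Each Ctcf shRNA list was shorter than its control list. The lengths were 45291 against 52800 peaks (Thy1+), 44283 against 50890 (SSEA1- Thy1-), 44622 against 51978 (SSEA1+) and 35803 against 53043 (day 12). The part of list length in the empty windows was not tested. The exact binomial 95% interval near Tfcp2l1 was 2.5% to 100% for 1 peak of 1, 15.8% to 100% for 2 of 2 and 29.2% to 100% for 3 of 3. The share of the whole list lies inside the interval in each of the 4 populations. Without the Thy1+ lists, whose labels conflict, 6 of 6 control peaks were absent, which follows from 7 of 7 and is no further check.

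The promoter site was the member seen in the most lists. It was present in the 4 sorted control lists, the 3 day 10 lists, both ESC CTCF lists and the SMARCA5 list, and missing from both day 0 lists and the other 4 Ctcf shRNA lists. This exact pattern over the 16 lists was shared by 61 of the 105010 sites (0.0581%). Of 37885 sites found in all 4 sorted control lists, 306 (0.808%) were in none of the 4 Ctcf shRNA lists. Counting only those on a RefSeq promoter, it was 9 of 1571 (0.573%). The other promoters of these 9 sites belonged to Cabp1 and its neighbour Gm35515, Map3k5, Nsmce3, Ptpn20, Slc4a2, Tekt5, Tfam and Zfp809. None of them is in the pluripotency list used below. That list holds only 29 genes, against 21887 protein-coding genes in all, so this absence says nothing particular to these promoters. Tfam encodes the packaging factor of mitochondrial DNA, Map3k5 a stress kinase and Zfp809 a silencer of retroviruses. Peaks on promoters as a class were absent with Ctcf shRNA in 35.1% (Thy1+), 21.5% (SSEA1- Thy1-), 14.7% (SSEA1+) and 46.8% (day 12) of cases. The Thy1+ control list held 3363 such promoter peaks, the other 3 sorted control lists between 1773 and 2455. The part of that excess in the Tfcp2l1 result was not tested.

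The upstream site was present in the SSEA1+ and day 12 control lists, in both ESC CTCF lists and in the SMARCA5 list, and in none of the day 10 lists. Sites of this kind, found in the SSEA1+ and day 12 control lists and in none of the earlier control lists, numbered 1646. Of these, 87.7% were in wild-type ESCs and 38.5% were in none of the 4 Ctcf shRNA lists of sorted cells.

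The distal site was present in the day 12 control list, all 3 day 10 lists and both ESC CTCF lists, and had no SMARCA5 peak. Of 5590 sites that the day 12 control list held and the earlier control lists did not, 78.2% were in wild-type ESCs and 73.0% were absent with Ctcf shRNA at day 12. Only 9.48% were in the day 10 OSKM list, as the distal site was.

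**Figure D3:**
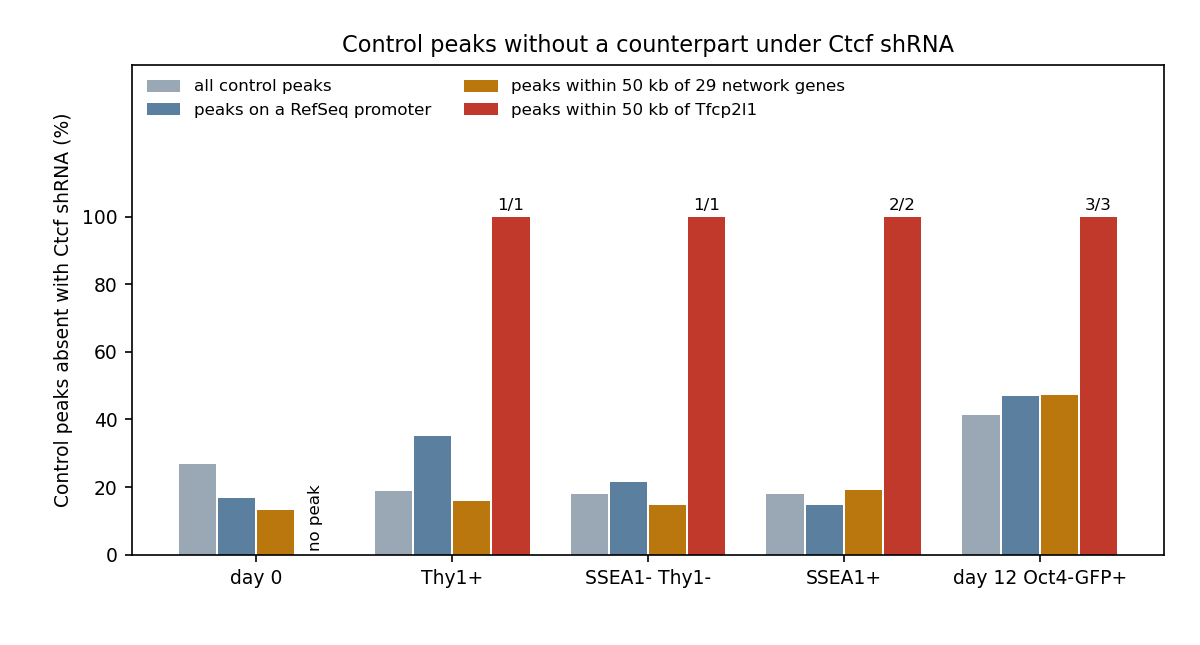
Percentage of control peaks with no overlapping peak in the matching Ctcf shRNA list, by population, for all peaks, peaks on RefSeq promoters, peaks within 50 kb of 29 pluripotency network genes, and peaks within 50 kb of Tfcp2l1 (numbers above the bars are absent/control peaks). The Tfcp2l1 bars stand at 1 of 1, 1 of 1, 2 of 2 and 3 of 3, while the other classes in the sorted populations lie between 14.6% and 47.2%. Tfcp2l1 was chosen with these losses known, so the contrast is part of the choice. Day 0 has no Tfcp2l1 peak.

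Some CTCF sites on either side of the window were, unlike the 3 reprogramming sites, in every CTCF list. They were sought for that trait, so their presence with Ctcf shRNA is part of the choice. The nearest sites present in all 15 CTCF lists, Ctcf shRNA lists included, were at 118529190 to 118529680 inside Clasp1 (-98.5 kb from the start site) and at 118759554 to 118759990 (131.8 kb). Both also held SMARCA5. They lie 229.9 kb apart, and the interval contains all of Tfcp2l1 and the end of Clasp1 but no other protein-coding gene. Between them were 16 further CTCF sites. Such constant sites numbered 16544 in the series, their median spacing was 55.8 kb, and 15.3% of the spacings were longer than this interval. Beyond the second of these, further constant sites followed at 141.1 and 144.6 kb. Not all sites outside the window were constant. Those at -80.9, -55.6 and 136.3 kb were, of the CTCF lists, only in the 2 of ESCs. A site at -63.2 kb, inside Clasp1, was intermediate: it was in 13 of the 15 CTCF lists, missing only from the Ctcf shRNA lists of day 0 and day 12. When the window was widened to 100 kb, these neighbours brought the absent share down to near that of the whole lists. It was 1 of 6 in Thy1+ cells (16.7%, against 18.9% of all control peaks) and 1 of 6 in SSEA1- Thy1- cells (16.7%, against 18.0%). In SSEA1+ cells it was 2 of 7 (28.6%, against 18.0%), and in day 12 cells 4 of 8 (50.0%, against 41.4%). The windows were thus empty close to Tfcp2l1, while peaks further out remained in each Ctcf shRNA list.

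On day 10 the number of peaks near Tfcp2l1 was 2 with and without added Ctcf. All 3 day 10 lists, the one with Smarca5 shRNA included, held the promoter and the distal site. Over the whole lists 17.3% of the peaks with added Ctcf were not found with OSKM alone, and near Tfcp2l1 it was 0 of 2. Of the peaks with added Ctcf, 1.72% were absent with Smarca5 shRNA, again against 0 of 2 (interval 0% to 84.2%). With 2 peaks per list a difference of this size was not detectable. The upstream site was absent from all 3 lists.

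ESCs held many more CTCF sites near Tfcp2l1 than any reprogramming list. The wild-type list had 10 peaks in the window, 4 of them touching the gene span. All 10 were absent from the day 0 control list, part of the pattern the gene was chosen for, against 66.7% of all wild-type peaks. Of the 10, 7 were absent from the day 12 control list (70.0%, 34.8% to 93.3%), against 40.4% of all. The 3 found in day 12 cells were the promoter, upstream and distal sites. The other 7 lay at -30.2, -19.3, -15.1, 5.12, 21.5, 57.0 and 80.8 kb from the start site, and the peak at 57.0 kb covered the far end of the gene. The wild-type ESC list is longer than the day 12 list, with 83173 against 53043 peaks, and how far list length sets the extra sites was not tested. A count of 10 is common, since 39.0% of 21887 protein-coding genes had as many or more wild-type ESC sites in a window of this kind (median 8).

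None of these peaks was missing from the list of Smarca5 knockout ESCs. The knockout list kept all 10 wild-type peaks (absent 0 of 10, interval 0% to 30.8%), against 2.88% absent over the whole list. It also held 3 peaks that wild type lacked, at -25.7 kb in Clasp1, at 30.8 kb inside Tfcp2l1 (118658540 to 118658939) and at 97.7 kb. These were 3 of its 13 peaks (23.1%, 5.04% to 53.8%), against 9.81% over the whole knockout list, a share that lies inside that interval. The knockout list is the longest of the 16.

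SMARCA5 itself had 6 peaks in the window, at -19.3, -15.1, -4.92, 21.5 and 30.8 kb and on the promoter. Of the 10 wild-type CTCF peaks, 5 (50.0%, 18.7% to 81.3%) held SMARCA5, against 48.6% of all wild-type peaks. The promoter and upstream sites had it and the distal site did not. The SMARCA5 peak at 30.8 kb coincided with no wild-type CTCF peak but with 1 of the 3 peaks found only in the knockout. Over the whole list 13.9% of SMARCA5 peaks had no wild-type CTCF, and 9.02% had no CTCF in the knockout, where near Tfcp2l1 it was 0 of 6. Where a SMARCA5 peak and an ESC CTCF peak overlapped near Tfcp2l1, their coordinates were the same, as they were at all 40418 wild-type CTCF peaks that a SMARCA5 peak overlapped. How far shared positions raise the overlap was not tested.

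The promoter peak did not sit at the same place in all sets of lists. In the sorted control lists its centre was at -104.5 bp from the start site and in the day 10 lists at -101.5 bp, close to the CCCTC letters shown above. In the wild-type and knockout ESC lists, and for SMARCA5, its centre was at -5.5 bp. CCCTC is present in 66.0% of RefSeq promoters, and a link of these letters to the peak position was not tested. The shift of 99 bp between the day 12 control and wild-type ESC lists compares with a median of 8 bp over 49767 overlapping pairs, of which 3.38% were at least as far apart. The upstream and distal sites were shifted by 28 and 8 bp, where 14.1% and 53.6% of pairs were at least as far apart. The sorted lists share coordinates (41717 of 41728 overlapping peaks between the Thy1+ and day 12 control lists), so they give a single position and not 4 measurements. The day 10 lists also share coordinates with each other, as do the ESC CTCF and SMARCA5 lists. Each of these sets likewise gives a single position.

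**Figure D4:**
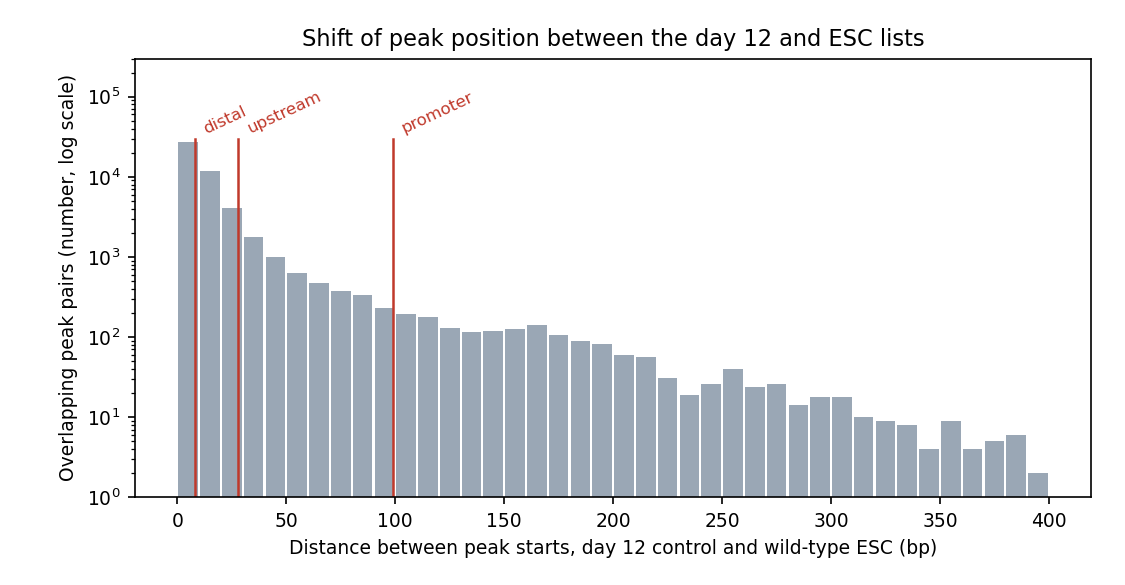
Distance in bp between the starts of overlapping peaks of the day 12 control and wild-type ESC lists (bars of 10 bp, number of pairs on a log scale), with red lines at the 3 sites near Tfcp2l1. The distal site lies at 8 bp, the upstream site at 28 bp and the promoter site at 99 bp. Of all pairs, 53.6%, 14.1% and 3.38% were at least as far apart.

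Few gene windows lost all their sites with Ctcf shRNA, whether or not the gene was on the pluripotency network list. Among 29 network genes, Tfcp2l1 not counted, 2 had no site within 50 kb in the day 0 control list, and both had at least 1 in the day 12 control list, where 38.0% of all such genes did. They were Klf5 with 6 sites and the nuclear receptor gene Nr0b1 with 2. The network genes that went from 1 or more control sites to 0 with Ctcf shRNA were Nr5a2 in day 0 cells (2 sites in the control), Klf5 in Thy1+ cells (1), and Nr0b1 in SSEA1- Thy1- cells (2) and in day 12 cells (2). Counts were 1 of 27, 1 of 28, 1 of 29, 0 of 29 and 1 of 29 in the order of the populations, against 4.85%, 1.56%, 2.00%, 1.98% and 5.40% of all protein-coding genes, shares so low that such counts say nothing particular to the network. None of the 28 network genes with a control site in all 4 sorted populations had an empty window in all 4 Ctcf shRNA lists. Over all protein-coding genes it was 13 of 18682 (0.0696%), a group to which Tfcp2l1 belongs by the pattern it was chosen for. In day 12 cells 26 of the 29 network genes had fewer sites with Ctcf shRNA (2 equal, 1 more), against 77.8% of all genes with a control site.

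Within the CP2 and Grainyhead family, the other 5 members had sites at day 0, as did 81.5% of all protein-coding genes. Tfcp2 and Ubp1 encode the widely expressed CP2 factors closest to TFCP2L1, and Grhl1, Grhl2 and Grhl3 encode the Grainyhead-like factors of epithelia. The day 0 control list had 6 sites near Tfcp2, 3 near Ubp1, 4 near Grhl1, 6 near Grhl2 and 5 near Grhl3, against 0 near Tfcp2l1. In day 12 cells the numbers in the control and Ctcf shRNA lists were 8 and 6 for Tfcp2, 7 and 5 for Ubp1, 3 and 2 for Grhl1, 9 and 7 for Grhl2, and 9 and 7 for Grhl3. At day 12 all 6 members had fewer sites with Ctcf shRNA, as did 77.8% of all genes with a control site. Each count out of 6 includes Tfcp2l1, whose loss was fixed by its choice. The count was 4 of 6 in Thy1+ cells (2 equal, against 56.2% of all genes) and 6 of 6 in SSEA1- Thy1- cells (50.6%). In SSEA1+ cells it was 3 of 6 (52.8%), where Grhl1 and Grhl2 were equal and Ubp1 went from 6 to 7. Besides Tfcp2l1, the members with fewer sites in SSEA1+ cells were Tfcp2 and Grhl3. At day 0 all 5 members with a control site had fewer, against 49.3% of genes. The empty window in these lists was that of Tfcp2l1, which was chosen for it.

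**Figure D5:**
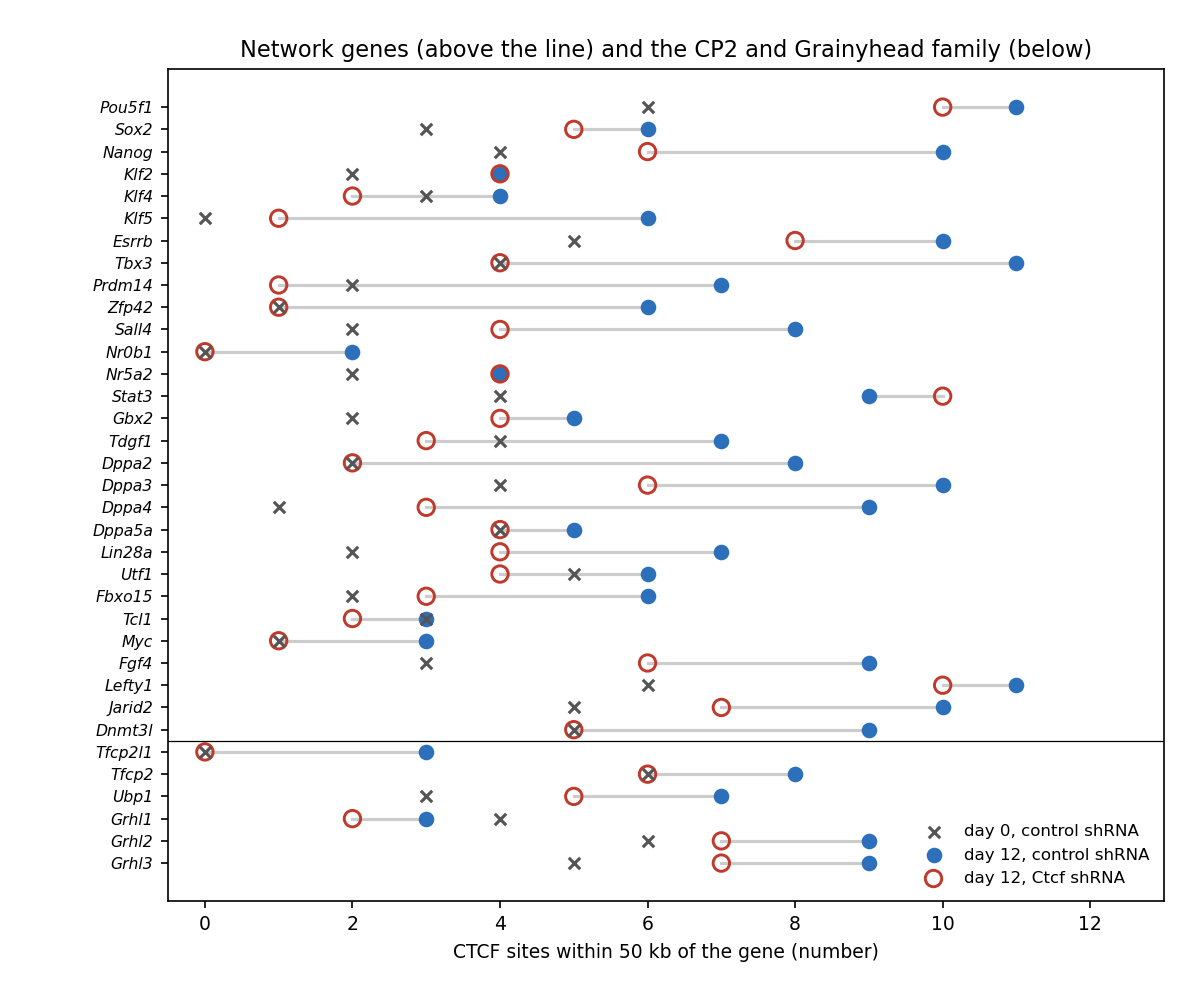
Number of CTCF sites within 50 kb of each of 29 pluripotency network genes (above the line) and the 6 CP2 and Grainyhead family genes (below): crosses are day 0 control, filled circles day 12 control and open circles day 12 Ctcf shRNA lists. Tfcp2l1 goes from 0 to 3 and back to 0; among the network genes Nr0b1 also reaches 0 with Ctcf shRNA.

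The genes whose windows were most alike were sought among 16623 protein-coding genes with 5 or more sites. Likeness was the summed absolute difference in the share of a gene's sites held by each of the 15 CTCF lists, where 0 means the same shares. The 5 nearest were Cct8l1 (0.604), Gm4868 (0.662), Tmem41a (0.662), Zeb1 (0.692) and Zfp281 (0.698). Cct8l1, with 7 sites, had 1 site in the Thy1+, SSEA1- Thy1- and day 12 control lists and 0 in each Ctcf shRNA list. Gm4868, with 2 sites in the SSEA1+ and 4 in the day 12 control list, and Tmem41a, with 1 in the Thy1+ and 1 in the day 12 control list, also had 0 in each Ctcf shRNA list. Zeb1, a repressor of epithelial genes, and Zfp281, a zinc-finger factor of ESCs, each had 1 site with Ctcf shRNA in Thy1+ cells, and Zfp281 had 1 in SSEA1- Thy1- cells too. The Ctcf shRNA lists were among the 15 that set the likeness, so these zeros are part of the choice.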

How the data were processed

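Peak lists were analysed as deposited. Per the submitters' processing notes, the tools included Bowtie2 with mm10 (GRCm38), MACS2, HOMER, deepTools, Picard, SAMtools, bedtools, Trim Galore and FastQC. Versions, settings and any pooling were not given in the sources used here. The score in the deposited lists is 0 in every line, so peaks were not ranked. Sequencing depth is not given either, and the 28 input samples were not used here. Samples were grouped by title.

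A peak was kept if it overlapped a peak of the other list by at least 1 bp. Alternatives were the gene span alone, a 100 kb flank, a reciprocal overlap of 50%, joining at 200 bp and leaving out sites of 1 list. Intervals are exact (Clopper-Pearson) at 95%. The gene spans and promoters are RefSeq's (GRCm38.p6), and all 35 listed genes were matched; 1 further gene is not reported here. The members and gene lists were chosen with earlier results of these data known. Named genes were Tfcp2l1, its neighbours, network genes that lost all control sites in a stage (up to 4), the family and the 5 most alike genes. Other genes named were chosen after their values were seen. On the thinned wild-type ESC list (83173 peaks) a simulated absent share of 30.0% was recovered as 30.0%. Scripts ran on SciPy 1.17.1 and NumPy 2.4.6 under Python 3.11.15, with figures from matplotlib 3.10.9.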

Additional observations from a re-analysis of the deposited data

How the results depend on the processing

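The number of sites near Tfcp2l1, 13, was 5 with the gene span alone and 21 with a flank of 100 kb. It was 13 with peaks joined at 200 bp and 11 without sites of 1 list. The shares of absent, added or SMARCA5-bound peaks stayed inside the exact 95% interval of the main value under each alternative tried, but these intervals are wide. With a flank of 100 kb the absent share fell from 100% to between 16.7% and 50.0% in the sorted populations, against 18.0% to 41.4% over the whole lists. The control peaks that entered lay at constant sites and at the site at -63.2 kb, which the day 12 Ctcf shRNA list lacked. The share of day 12 control peaks absent from day 0 fell from 100% to 37.5%, against 49.3% over the whole list. The 7 of 7 control peaks absent in the 4 sorted populations became 6 of 6 without the Thy1+ lists and 4 of 4 without the day 12 lists, settings chosen after the data were seen. For day 0 no share could be formed, since the control list had 0 peaks in the window; within 100 kb, 1 of 5 was absent. A stricter peak threshold was not run because all scores are 0. No paired analysis was possible because each group has a single list, and for the same reason no replicate could be left out.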

Other observations

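Among sites on RefSeq promoters that all 4 sorted control lists held, the longer CTCF core described above (both strands) was present in the promoter of 168 of 990 sites that all 4 Ctcf shRNA lists kept (17.0%, exact 95% interval 14.7% to 19.5%). It was present in 60 of 572 sites kept in 1 to 3 of them (10.5%, 8.10% to 13.3%), and in 0 of the 9 kept in none, the Tfcp2l1 promoter among them (0%, 0% to 33.6%). The interval of these 9 includes both other shares. A link of the core to the absence of a site with Ctcf shRNA was not tested. The promoter window of 300 bases and the joined site need not cover each other fully, so letters outside the window were not searched.

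The 13 protein-coding genes with a control site in all 4 sorted populations and an empty window in all 4 Ctcf shRNA lists were Cby2, Gm1966, Gm36448, Gm5798, Gm9805, LOC115490339, Lhx6, Mrgpra4, Mrgprx1, Siah3, Tfcp2l1, Vmn2r20 and Zfp748. Lhx6 encodes a LIM-homeobox factor of interneurons, Mrgpra4 and Mrgprx1 receptors of sensory neurons, and Vmn2r20 a vomeronasal receptor. The remaining genes are not described here, and a shared function was not tested. Sites were counted for each gene window separately, so genes that lie close together can share the same sites. Tfcp2l1, with 13 CTCF sites in its window over the 15 lists, had the most, followed by Lhx6 with 7. That count does not measure loss. Near Tfcp2l1, 10 of the 13 sites were in ESC lists only, and the sorted control lists held 1, 1, 2 and 3 peaks.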
